A study of Mus musculus with 16 samples.

Results

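Claudins are tetraspan membrane proteins that polymerise into the strands of the tight junction and set which ions and how much water pass between epithelial cells. The genes were chosen by symbol, as 10 named claudins among the 20790 genes listed at day 2 and the 20658 listed at day 4, and all 10 were found in both tables. Cldn2 and Cldn15 were placed in a pore-forming class, Cldn1, Cldn3, Cldn4, Cldn8 and Cldn18 in a sealing class, and Cldn7, Cldn12 and Cldn23 in neither class. RNA came from epithelial organoids grown from the jejunum of C57BL/6 mice, all of genotype Villin-CreERT2; Hnf4a flox/flox. In these organoids an epithelial promoter drives a recombinase that 4-hydroxytamoxifen (4OHT) activates and that excises floxed Hnf4a, a nuclear receptor gene of the gut epithelium. The 4OHT groups received 0.5 µM 4OHT for 24 h before they were split, and the control groups received the solvent DMSO. Each treatment has 4 libraries at day 2 and 4 at day 4, although the labels' protocol names a harvest only at day 4 after the last passage. No organoids without floxed Hnf4a received 4OHT, so loss of Hnf4a cannot be told apart from other effects of 4OHT and the recombinase. The labels do not say whether libraries came from separate mice or cultures, so p-values measure the spread between libraries, which may be technical.

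Library totals ran from 63791712 to 93322956 counts, and levels are given as CPM, the counts of a gene per 1000000 counts of its library after TMM scaling. At day 2, Hnf4a itself stood at 1020 ± 31.7 CPM (SD, n = 4) in control libraries and at 511 ± 21.2 in treated ones. The day 4 values were 967 ± 11.9 and 470 ± 15.3, and the groups overlapped at neither day. The labels do not say which exons are floxed, so transcripts from a deleted allele could still have been counted. The epithelial markers Epcam, Cdh1, Vil1, Krt8, Krt18 and Krt20 summed to at least 6305 CPM in every library, while the 5 listed stromal markers summed to at most 11.4 CPM and the 6 listed endothelial and immune markers to at most 20.5 CPM. Replicate 4 of the 4OHT day 4 group stood apart: it was the highest of its group for Cldn2, Cldn3, Cldn4, Cldn7, Cldn12 and Cldn23 and the lowest for Cldn15, and calls that rest on it are given with and without it.

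In the intestine, claudin-2 and claudin-15 form paracellular channels for small cations and water. Claudin-15 is known in mice for the return of sodium to the lumen that sodium-coupled uptake of glucose needs, and claudin-2 for its presence in the crypts and in the infant gut. Claudin-3 and claudin-4 are sealing claudins of many epithelia, claudin-1 seals the epidermis, claudin-8 is best known from the colon and the distal nephron, and claudin-18 from the stomach and lung. Claudin-7 lies largely on the basolateral membrane, where it binds the adhesion protein EpCAM.

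The promoters of both pore-forming genes are shown because these genes behaved differently in 4OHT, and those of Cldn3 and Cldn4 because these sealing claudins are neighbours on chromosome 5 with opposite strands. Each run is the 250 bases before the RefSeq start (GRCm38.p6), written 5′ to 3′ on the gene's strand. Capitals mark matches, on either strand, to any of 6 short motifs that were searched. CAAAGTCCA and CAAAGGTCA are of a type that nuclear receptors such as HNF4 bind. The motif of CDX factors was written TTTATG. For HNF1 factors the letters of a partial site, GTTAAT, were used. The motif of GATA factors was AGATAA. The TATA box was TATAAA.
Cldn2: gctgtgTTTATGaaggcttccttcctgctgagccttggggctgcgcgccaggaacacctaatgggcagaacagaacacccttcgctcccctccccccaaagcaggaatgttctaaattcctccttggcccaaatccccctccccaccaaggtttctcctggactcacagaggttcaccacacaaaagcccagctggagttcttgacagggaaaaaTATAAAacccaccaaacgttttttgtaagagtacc
Cldn15: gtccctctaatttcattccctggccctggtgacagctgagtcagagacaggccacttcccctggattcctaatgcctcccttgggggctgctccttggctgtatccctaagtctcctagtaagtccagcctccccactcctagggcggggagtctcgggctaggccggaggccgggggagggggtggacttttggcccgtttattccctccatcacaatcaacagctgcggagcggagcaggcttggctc
Cldn3: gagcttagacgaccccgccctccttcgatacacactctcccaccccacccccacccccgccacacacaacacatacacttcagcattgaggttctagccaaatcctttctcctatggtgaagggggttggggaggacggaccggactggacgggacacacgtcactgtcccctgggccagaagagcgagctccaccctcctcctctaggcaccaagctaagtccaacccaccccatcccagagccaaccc
Cldn4: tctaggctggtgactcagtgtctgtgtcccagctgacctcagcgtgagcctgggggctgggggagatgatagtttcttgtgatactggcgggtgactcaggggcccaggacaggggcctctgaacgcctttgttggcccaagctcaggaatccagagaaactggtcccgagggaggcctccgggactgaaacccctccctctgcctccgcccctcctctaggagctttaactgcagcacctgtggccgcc
The windows lie at chrX:139800558-139800807 (plus strand) for Cldn2, chr5:136967619-136967868 (plus) for Cldn15, chr5:134985964-134986213 (plus) for Cldn3 and chr5:134946935-134947184 (minus) for Cldn4. GENCODE starts the Cldn15 gene further upstream, at chr5:136966616, and the bases before that start were not searched. It starts Cldn2 at chrX:139800828, shortly after the RefSeq start. The Cldn2 window held TTTATG 244 bases and TATAAA 35 bases before the start. TTTATG or its reverse complement occurred in 10.8% of all 32536 distinct promoter windows of that length, and TATAAA in 12.3%. The letters of the other motifs, found in 0.387% (CAAAGTCCA), 0.430% (CAAAGGTCA), 6.47% (GTTAAT) and 9.97% (AGATAA) of windows, were not in these runs, which says nothing of factor binding. The Cldn15, Cldn3 and Cldn4 windows held no exact match to the letters of the 6 motifs, and inexact matches were not searched. Their GC content was 60.8%, 60.8% and 62.0%, against 52.0% for Cldn2 and a median of 52.4% over all windows. RefSeq windows were found for 8 of the 10 genes.

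The claudins spanned a wide range of levels, which were compared between genes as CPM per kilobase of merged exons. In DMSO organoids at day 2, Cldn3 was at 384 ± 45.9 CPM per kilobase (SD, n = 4) and Cldn7 at 321 ± 24.6, and the ranges of these neighbours in the order overlapped. Cldn15 followed at 176 ± 22.7, Cldn2 at 115 ± 5.02 and Cldn4 at 53.9 ± 7.72, each apart from its neighbours. Cldn12 (15.4 ± 0.466) and Cldn23 (11.1 ± 0.566) were lower. Cldn8 (0.240 ± 0.0335) was far lower, with 42 to 59 counts per library. Cldn18 (0.0389 ± 0.00902) and Cldn1 (0.0145 ± 0.00884) were close to the limit of detection. Cldn3 and Cldn7 made up 35.7% and 29.8% of the summed claudin level, and Cldn8, Cldn18 and Cldn1 together well under 1%. With the longest annotated transcript as the length, Cldn7 (468 in DMSO at day 2) stood above Cldn3 in every group, so the order of these genes depends on the length used.

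In 4OHT organoids the genes in the middle of this range lay closer together. At day 2, Cldn2 (112 ± 3.56), Cldn15 (97.2 ± 13.3) and Cldn4 (75.6 ± 10.2) formed a run in which neighbouring ranges overlapped. At day 4 the neighbouring ranges of Cldn15 (127 ± 10.2), Cldn2 (111 ± 13.0) and Cldn4 (74.6 ± 35.0) overlapped only through replicate 4. In 4OHT replicates 1 to 3, Cldn15 was at 125.7 to 137.5, Cldn2 at 98.6 to 113.5 and Cldn4 at 43.7 to 68.0. In DMSO day 4 organoids Cldn15 (176 ± 7.39), Cldn2 (mean 108) and Cldn4 (39.7 ± 5.41) were all apart.

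**Figure D1:**
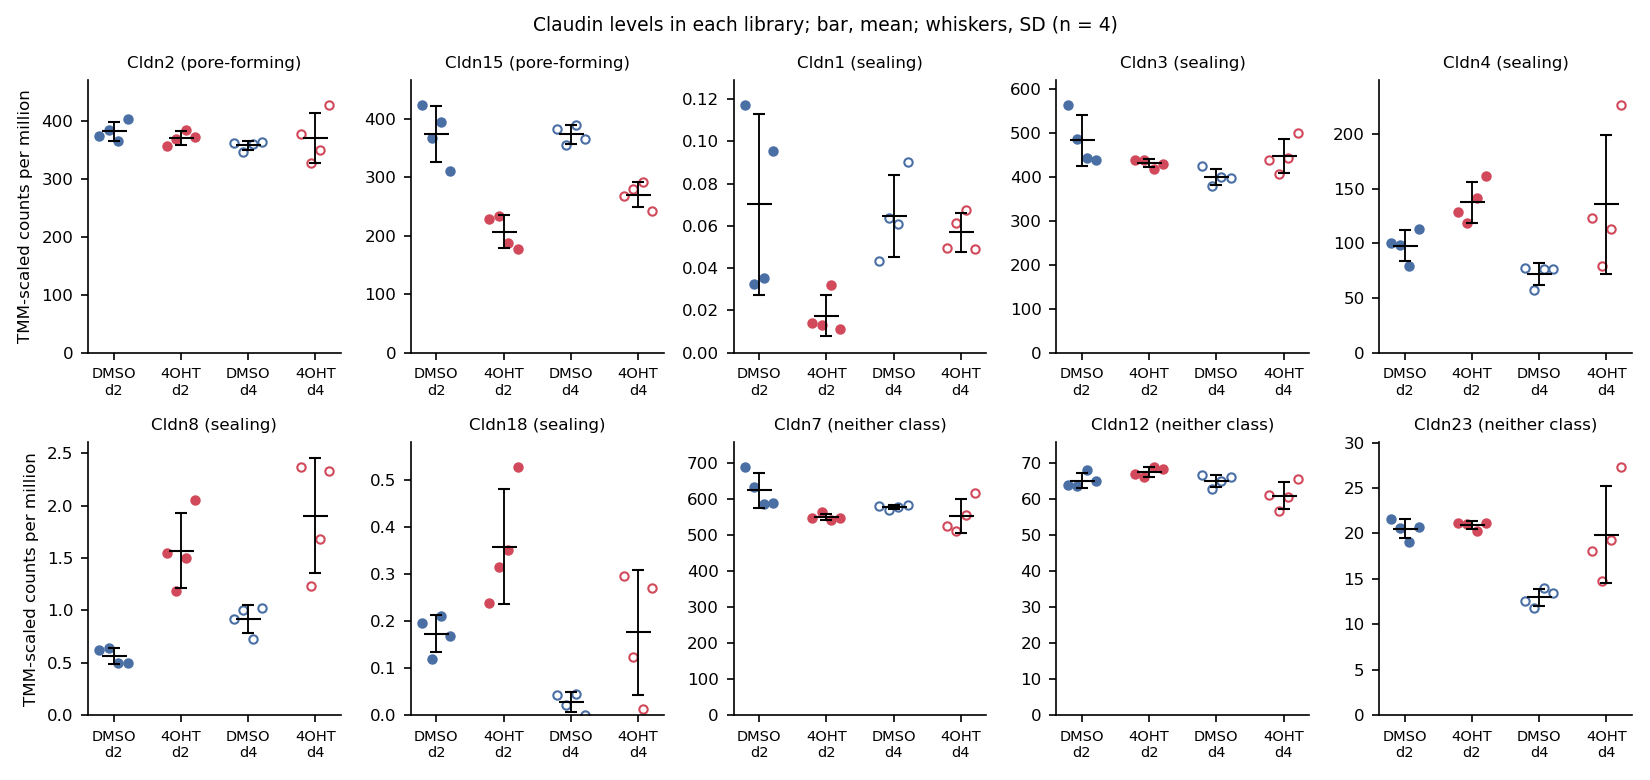
TMM-scaled CPM of the 10 claudins (vertical axes, linear, from 0, with a separate scale per gene) in each library of the 4 groups; points are libraries, horizontal bars the means and whiskers the SD (n = 4). Cldn15 lies lower in all 4OHT libraries than in the DMSO libraries of its day, Cldn4 and Cldn8 lie higher, and the Cldn2 groups overlap.

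Comparison of 4OHT with DMSO organoids asked how each claudin changed after deletion of Hnf4a was induced. At day 2, 5 of the 9 claudins tested passed the test (edgeR quasi-likelihood, Benjamini-Hochberg adjusted p below 0.05 over all genes), 3 of them higher and 2 lower. Over all 15897 genes, 16.9% were called higher and 14.3% lower. At day 4, 4 of 8 tested passed, 3 higher and 1 lower, against 13.7% higher and 11.1% lower of 16040 genes. These fits did not pair libraries by replicate number. With that number as a block in edgeR, Cldn3 (adjusted p = 0.0139) and Cldn12 (adjusted p = 0.0362) also passed at day 4. Cldn4 (adjusted p = 0.0728) then did not. Of the pore-forming genes, 1 of 2 fell at each day. Without the block, 3 of 4 tested sealing genes rose at day 2 and 2 of 3 tested at day 4, and none of those tested was called lower. The sealing gene Cldn1 was not tested at either day. Of the day 2 risers, Cldn8 and Cldn18 were at only 0.667 and 0.0804 CPM per kilobase in 4OHT. The summed sealing level at day 2 did not rise, at 438 ± 47.5 CPM per kilobase in DMSO and 418 ± 8.63 in 4OHT. The median log2 fold change of all tested genes was close to 0 at both days. RNA of whole organoids cannot tell fewer cells of a type from less RNA per cell.

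Cldn15 was the pore-forming gene that fell. At day 2 it was at 423, 367, 395 and 310 CPM in the DMSO libraries (replicates 1 to 4) and at 228, 233, 188 and 177 CPM in the 4OHT libraries. The day 4 libraries had 381, 354, 389 and 366 CPM in DMSO and 267, 280, 292 and 241 CPM in 4OHT. Every 4OHT library lay below every DMSO library of the same day. By edgeR its log2 fold change was -0.85 ± 0.10 (SE, adjusted p = 8.93e-05) at day 2 and -0.46 ± 0.06 (adjusted p = 0.000671) at day 4. Both calls held under all 14 alternatives tried at each day, with log2 fold changes from -0.94 to -0.79 at day 2 and from -0.51 to -0.41 at day 4.

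Cldn2, the other pore-forming gene, did not pass the test at either day. It was at 374, 384, 364 and 404 CPM in DMSO and at 356, 369, 385 and 373 CPM in 4OHT at day 2. The day 4 values were 362, 346, 360 and 363 CPM in DMSO and 377, 328, 349 and 428 CPM in 4OHT, where the highest value was replicate 4. The groups overlapped at both days. Cldn2 had a log2 fold change of -0.04 (95% interval -0.14 to 0.07, adjusted p = 0.606 by edgeR) at day 2 and 0.05 (-0.12 to 0.22, adjusted p = 0.658) at day 4. These intervals leave out a change as large as that of Cldn15 at either day.

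Within a library the ratio of Cldn15 to Cldn2 CPM therefore separated the treatments. It was 1.13, 0.957, 1.08 and 0.769 in DMSO and 0.641, 0.632, 0.488 and 0.475 in 4OHT at day 2. Day 4 ratios were 1.06, 1.02, 1.08 and 1.01 in DMSO and 0.707, 0.855, 0.837 and 0.565 in 4OHT. The 4OHT libraries lay below the DMSO libraries of the same day without overlap.

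Enterocyte markers were lower beside Cldn15 at day 2 and not at day 4. The list Alpi, Fabp1, Fabp2, Sis, Lct, Apoa1, Apoa4, Anpep, Mttp and Slc5a1 summed to 6600 to 8879 CPM in DMSO and to 4658 to 6683 CPM in 4OHT at day 2, where 7 of 10 genes fell and 0 rose. At day 4 the sums were 9470 to 10440 CPM and 9031 to 12080 CPM, with 2 genes higher and 0 lower. The crypt base stem cell list (10 genes, among them Lgr5, Olfm4 and Ascl2) had 6 lower at day 2 and 8 lower at day 4, with sums of 1683 to 1941 against 1096 to 1241 CPM and of 4039 to 4372 against 2747 to 3288 CPM. Among all genes tested, 14.3% were called lower and 16.9% higher at day 2, and 11.1% lower and 13.7% higher at day 4. The part of either cell type in the Cldn15 difference was not tested.

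Among the sealing claudins, Cldn4 was the abundant member that rose. It was at 101, 98.8, 79.1 and 113 CPM in DMSO and at 129, 118, 141 and 161 CPM in 4OHT at day 2. On day 4 Cldn4 stood at 77.5, 57.3, 76.5 and 76.7 CPM in DMSO and at 123, 79.4, 113 and 227 CPM in 4OHT. The groups did not overlap at either day, but 4OHT replicate 2 lay just above the DMSO libraries at day 4 and replicate 4 far above the rest. Its log2 fold change was 0.50 ± 0.11 (adjusted p = 0.00435 by edgeR) at day 2. That call was lost in 1 fit over all 16 libraries (adjusted p = 0.157), in which the libraries of day 4 also set the spread. For day 4 the value was 0.91 ± 0.28 (adjusted p = 0.0423) and did not hold up well. Replicate numbers pair the day 4 libraries, and with the replicate block the adjusted p was 0.0728. Without 4OHT replicate 4 the log2 fold change was 0.55 (adjusted p = 0.0361), without DMSO replicate 2 it was 0.82 (adjusted p = 0.101). The call was lost without any 1 of the 4 DMSO libraries and without 4OHT replicate 1 or 3, and in 8 of 14 alternatives in all.

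Cldn3, encoded next to Cldn4, did not pass the test at either day. It was at 564, 485, 443 and 439 CPM in DMSO and at 437, 438, 418 and 429 CPM in 4OHT at day 2. In the day 4 libraries it was at 424, 378, 398 and 398 CPM in DMSO and at 438, 407, 443 and 500 CPM in 4OHT. Every 4OHT library lay below every DMSO library at day 2, by a narrow margin, while at day 4 each 4OHT library lay above the DMSO library of the same number and the groups overlapped. Cldn3 had a log2 fold change of -0.16 (95% interval -0.30 to -0.01, adjusted p = 0.102 by edgeR) at day 2 and 0.16 (0.01 to 0.31, adjusted p = 0.104) at day 4, where the replicate block gave an adjusted p of 0.0139 and leaving out 4OHT replicate 2 gave 0.0442. At day 2 it passed without DMSO replicate 4 (adjusted p = 0.0380). The Cldn3 exon (chr5:134986214-134987472) overlaps Wbscr25 on the opposite strand, which had at most 56 counts in a library against at least 26211 for Cldn3.

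The ratio of Cldn4 to Cldn3 CPM within a library was 0.179 to 0.258 in DMSO and 0.270 to 0.376 in 4OHT at day 2, and 0.151 to 0.193 in DMSO and 0.195 to 0.453 in 4OHT at day 4. The ranges did not overlap, although at day 4 they nearly touched.

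Cldn8 rose at both days, from a low level. Its counts were 48, 59, 42 and 42 in DMSO and 110, 90, 94 and 183 in 4OHT at day 2, and 85, 94, 48 and 68 in DMSO and 192, 100, 124 and 190 in 4OHT at day 4. On the CPM scale this was 0.492 to 0.641 against 1.18 to 2.05 at day 2 and 0.730 to 1.02 against 1.23 to 2.37 at day 4, with no overlap. The log2 fold change was 1.49 ± 0.18 (adjusted p = 7.10e-05 by edgeR) at day 2 and 1.05 ± 0.22 (adjusted p = 0.00624) at day 4, and both calls held under all 14 alternatives tried.

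Cldn18 was detected by few reads. Its counts were 15, 11, 18 and 14 in DMSO and 17, 24, 22 and 47 in 4OHT at day 2, with a log2 fold change of 1.08 ± 0.28 (adjusted p = 0.0122 by edgeR) that was not called in 1 fit over all 16 libraries (adjusted p = 0.0759). At day 4 its counts were 4, 2, 3 and 0 in DMSO and 24, 10, 1 and 22 in 4OHT, which the filter on low counts left out. The library with 0 counts allows up to 0.0452 CPM, the level of 3 counts. Summed over libraries, 57 against 9 counts gave a ratio of 6.35 (95% interval 3.12 to 14.6, exact, counting error only), and a fit without the filter gave an adjusted p of 0.0418. The 9 DMSO counts are fewer than the 10 of a listed gene. Cldn18 was thus listed at day 4 through 4OHT, and its day 4 values are descriptive only. In 1 fit over all 16 libraries Cldn18 was kept by the filter, and there its day 4 difference was called higher. The groups overlapped, since 4OHT replicate 3 had a single count.

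Markers of mucous cells of the stomach, where Cldn18 is known, moved in the same direction. Of the 11 genes of that list, Muc5ac and Sox2 were in neither table. The 9 listed genes summed to 138 to 167 CPM in DMSO and to 340 to 419 CPM in 4OHT at day 2, with 7 of 8 tested higher and 1 lower, and to 30.3 to 44.6 and 78.9 to 172 CPM at day 4, with 6 of 7 higher and 1 lower. Among them Tff1, a secreted trefoil peptide, was at 7.34 to 9.23 CPM in DMSO and at 103 to 138 CPM in 4OHT at day 2. Gkn3 was the gene that went the other way, at 4.15 to 5.46 against 1.84 to 3.27 CPM at day 2 and 19.7 to 23.9 against 13.4 to 19.7 CPM at day 4. Most of the day 2 sums came from 1 gene of the list, at 124 to 148 CPM in DMSO and 220 to 260 CPM in 4OHT. Markers of squamous epithelium summed to 88.7 to 110 against 422 to 547 CPM at day 2 (7 of 8 tested higher) and to at most 19.4 against 57.9 to 203 CPM at day 4 (4 of 4 tested higher). Goblet cell markers (Muc2, Clca1, Fcgbp, Zg16, Tff3, Agr2 and Spdef) summed to 4453 to 5211 CPM in DMSO and 6992 to 9030 CPM in 4OHT at day 2, and to 3366 to 4634 and 6627 to 8650 CPM at day 4, with 6 of 7 higher and 0 lower at each day. Paneth cell markers summed to 1442 to 1788 against 1199 to 1343 CPM at day 2 and to 1805 to 2237 against 1700 to 1908 CPM at day 4, with 1 of 6 higher and 2 lower at each day. Of the 10 squamous genes, Sprr3 was listed at neither day and Krt6a not at day 4. No listed gene of these lists was at 0 in all libraries of a group, but some were near the floor. Trp63 of the squamous list had at most 10 counts in a library and Muc6 of the gastric list at most 11. Beside these counts, 16.9% of all tested genes were called higher and 14.3% lower at day 2, and 13.7% and 11.1% at day 4. The part of such cells in the Cldn4, Cldn8 or Cldn18 differences was not tested.

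Cldn1 was at the limit of detection. Its counts were 9, 3, 3 and 8 in DMSO and 1, 1, 2 and 1 in 4OHT at day 2, a ratio of the sums of 0.246 (95% interval 0.0730 to 0.661, exact, counting error only). At day 4 they were 4, 6, 4 and 6 in DMSO and 4, 5, 5 and 4 in 4OHT. The filter on low counts left it out at both days, and without the filter its adjusted p (edgeR) was 0.0457 at day 2 and 0.873 at day 4.

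Of the claudins in neither class, Cldn23 rose at day 4 and Cldn7 fell at day 2, while Cldn12 passed at neither day. Cldn23, one of the less studied claudins, was at 21.6, 20.6, 19.1 and 20.7 CPM in DMSO and at 21.2, 21.1, 20.2 and 21.1 CPM in 4OHT at day 2, with a log2 fold change of 0.04 (95% interval -0.07 to 0.14, adjusted p = 0.612 by edgeR). At day 4 it was at 12.6, 11.8, 14.0 and 13.4 CPM in DMSO and at 18.0, 14.8, 19.3 and 27.3 CPM in 4OHT. The day 4 groups did not overlap, with replicate 4 again the highest. The log2 fold change at day 4 was 0.62 ± 0.16 (adjusted p = 0.0179). Without 4OHT replicate 4 it was 0.43 (adjusted p = 0.00911), and without DMSO replicate 2 the call was lost (0.58, adjusted p = 0.0545).

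Cldn7 was at 689, 633, 587 and 589 CPM in DMSO and at 548, 564, 542 and 549 CPM in 4OHT at day 2, and the groups did not overlap. The log2 fold change was -0.17 ± 0.05 (adjusted p = 0.0235 by edgeR), and the call was lost without DMSO replicate 2 (adjusted p = 0.0671) or without 4OHT replicate 3 (adjusted p = 0.0615). Its day 4 range was 570 to 583 CPM in DMSO and 512 to 618 CPM in 4OHT, with a log2 fold change of -0.06 (95% interval -0.20 to 0.08, adjusted p = 0.515). Cldn12, linked in mice to calcium permeability, ranged from 63.5 to 67.9 CPM in DMSO and from 65.9 to 68.8 CPM in 4OHT at day 2 (log2 fold change 0.06, 95% interval -0.03 to 0.15, adjusted p = 0.309). Its day 4 range was 62.6 to 66.5 CPM in DMSO and 56.5 to 65.5 CPM in 4OHT (log2 fold change -0.09, -0.21 to 0.02, adjusted p = 0.223), and the replicate block gave an adjusted p of 0.0362 there.

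**Figure D2:**
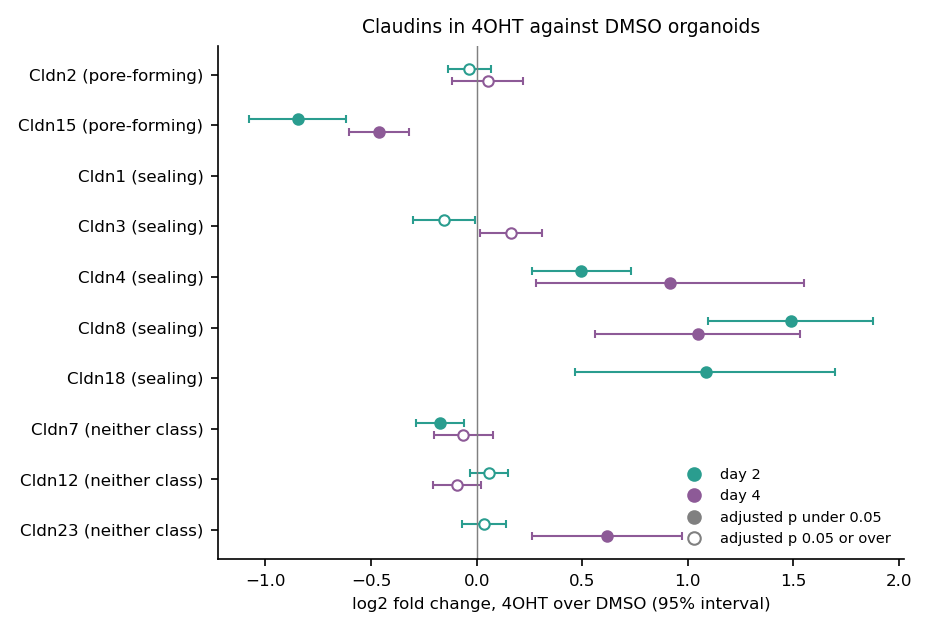
Log2 fold change of each claudin in 4OHT over DMSO organoids (horizontal axis) at day 2 and day 4, with the 95% interval; filled points passed an adjusted p of 0.05 (edgeR quasi-likelihood), and Cldn1 at both days and Cldn18 at day 4 have no point because the filter on low counts left them out. Cldn15 lies left of 0 and Cldn4 and Cldn8 lie right of 0 at both days, while the intervals of Cldn2 include 0.

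Summed by class, the pore-forming level was lower relative to the sealing level in 4OHT libraries. At day 2 the pore-forming genes summed to 291 ± 18.4 CPM per kilobase (SD, n = 4) in control libraries and to 209 ± 11.2 in treated ones, and at day 4 to 283 ± 9.20 and 239 ± 5.58. The sealing genes summed to 438 ± 47.5 and 418 ± 8.63 at day 2, and to 358 ± 19.5 and 431 ± 65.5 at day 4, in the same order. The log2 ratio of pore-forming to sealing level was -0.69, -0.61, -0.42 and -0.62 in DMSO and -0.97, -0.91, -1.01 and -1.14 in 4OHT at day 2. Day 4 libraries gave -0.40, -0.30, -0.30 and -0.35 in DMSO and -0.80, -0.67, -0.77 and -1.11 in 4OHT. All 4OHT libraries lay below all DMSO libraries of the same day. The difference of the means was -0.42 at day 2 and -0.50 at day 4, and -0.41 at day 4 without 4OHT replicate 4. Since the classes were summed over genes picked with earlier results known, no test is given. At day 2 the difference lay mostly in the pore-forming sum, through Cldn15, and at day 4 both sums differed, the sealing sum through Cldn4 and through Cldn3, which was not called.

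**Figure D3:**
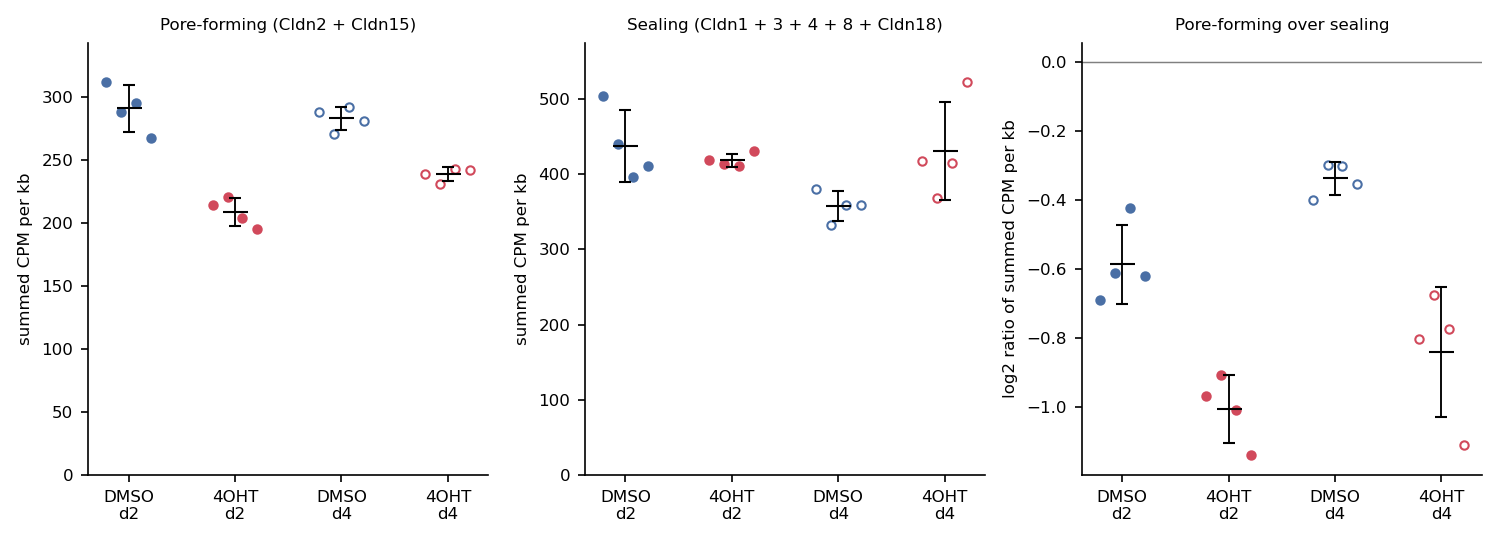
Summed level per length of the pore-forming and of the sealing claudins (CPM per kilobase, axes from 0) and the log2 ratio of these sums in each library; points are libraries, bars means and whiskers SD (n = 4). The ratio lies between -0.69 and -0.30 in the 8 DMSO libraries and between -1.14 and -0.67 in the 8 4OHT libraries, and within each day the treatments do not overlap.

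The interaction of day and treatment asked whether the 4OHT difference itself changed between the days. None of the 9 claudins tested passed (edgeR quasi-likelihood over 16597 genes, of which 1.2% were called higher and 0.476% lower). At an unadjusted p below 0.05 there were 4, and DESeq2 called 2. The interaction was 0.59 ± 0.18 on the log2 scale for Cldn23 (adjusted p = 0.0924), 0.33 ± 0.10 for Cldn3 (adjusted p = 0.110), 0.39 ± 0.14 for Cldn15 (adjusted p = 0.139) and -0.15 ± 0.06 for Cldn12 (adjusted p = 0.243). DESeq2 called Cldn23 (adjusted p = 0.0253) and Cldn3 (adjusted p = 0.0444). With a block per replicate number and day, Cldn15 (adjusted p = 0.0104), Cldn23 (adjusted p = 0.0122) and Cldn3 (adjusted p = 0.0230) passed. The smaller fall of Cldn15 at day 4 and the rise of Cldn23 at day 4 thus differed between days in some fits and not in others. Cldn15 also passed without DMSO day 2 replicate 4, and Cldn23 without 4OHT day 4 replicate 2.

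The change from day 2 to day 4 was also fitted within each treatment, in comparisons that share their libraries with those above. The difference between treatments in that change is the interaction, in which no claudin passed in the edgeR fit. In DMSO organoids 4 of 8 tested passed, against 28.7% called higher and 24.8% lower of all genes. Cldn23 fell by 0.65 on the log2 scale (SE 0.07, adjusted p = 4.48e-06 by edgeR), Cldn4 by 0.43 (SE 0.12, adjusted p = 0.00957) and Cldn3 by 0.26 (SE 0.07, adjusted p = 0.0109), and Cldn8 rose by 0.72 ± 0.16 (adjusted p = 0.00233). The Cldn4 call was lost in 1 fit over all 16 libraries (adjusted p = 0.140). Cldn18, left out by the filter, had 11 to 18 counts per library at day 2 and 0 to 4 at day 4 (adjusted p = 0.000419 without the filter). In 4OHT organoids 2 of 9 tested passed, against 25.9% called higher and 23.5% lower. Cldn15 rose by 0.40 ± 0.10 (adjusted p = 0.00662) and Cldn12 fell by 0.14 (SE 0.05, adjusted p = 0.0299). Without any 1 of 5 4OHT libraries (day 2 replicates 1, 3 and 4 and day 4 replicates 2 and 3) the Cldn12 call was lost. For Cldn23 in 4OHT the value was -0.07 (95% interval -0.40 to 0.27, adjusted p = 0.733), and without day 4 replicate 4 it was -0.25 and passed.

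The wider junction was described by lists of other genes. Of the 25 tested tight junction genes other than claudins, 13 rose and 1 fell at day 2 (median log2 fold change 0.21) and 11 rose and 0 fell at day 4 (median 0.15). Of all genes, 16.9% were called higher and 14.3% lower at day 2, and 13.7% and 11.1% at day 4. With the replicate block, which also called many more of all genes, 14 rose at day 4, and without 4OHT replicate 4 10 did. Ildr1, a protein of tricellular junctions, stood at 44.8 ± 4.65 CPM in control and 100.3 ± 5.79 CPM in treated libraries of day 2, a log2 fold change of 1.17 ± 0.07 (adjusted p = 4.39e-07 by edgeR), and rose by 1.86 ± 0.22 at day 4 (adjusted p = 0.000398). Cgnl1, a cytoplasmic plaque protein, rose by 1.15 ± 0.10 at day 2 (adjusted p = 7.45e-06) and 0.71 ± 0.09 at day 4 (adjusted p = 0.000400). Mylk, a myosin light chain kinase, rose at both days, by 0.46 ± 0.04 at day 4 (adjusted p = 5.66e-05). Marveld2, which encodes tricellulin, was the gene that fell at day 2 (-0.15 ± 0.04, adjusted p = 0.0111). Ybx3, among the genes with the highest CPM of the list, passed at neither day. Ocln, which encodes occludin, was at 0.01 ± 0.05 and 0.03 ± 0.07.

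Of 13 tested adherens junction genes, 9 rose and 1 fell at day 2 (median 0.21) and 5 rose and 0 fell at day 4 (median 0.15). The replicate block called 10 higher at day 4, in a fit that also called many more of all genes. Nectin4, an adhesion receptor, rose from 6.34 ± 0.677 to 17.1 ± 2.27 CPM at day 2 (log2 fold change 1.44 ± 0.10, adjusted p = 1.09e-06 by edgeR) and by 1.16 ± 0.09 at day 4 (adjusted p = 3.02e-05). Jup, which encodes plakoglobin, rose by 0.27 ± 0.04 at day 2 and 0.24 ± 0.06 at day 4, and Vcl, which encodes vinculin, by 0.21 ± 0.06 and 0.24 ± 0.04. Nectin1 fell by 0.28 (SE 0.07, adjusted p = 0.00925) at day 2. The most abundant genes by CPM were Cdh17 and Ctnnb1. Ctnnb1 (β-catenin) rose by 0.21 ± 0.05 at day 2 (adjusted p = 0.00812), and Cdh17, an intestinal cadherin, did not pass at either day.

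Claudin-7 is bound by EpCAM, which the protease matriptase (St14) cleaves under restraint by the inhibitors Spint1 and Spint2. Epcam went from 1090 ± 66.1 CPM in control to 881 ± 38.3 CPM in treated libraries of day 2, a fall of 0.30 (SE 0.05, adjusted p = 0.00124 by edgeR), beside the fall of Cldn7 in the same libraries. At day 4 the Epcam value was -0.11 ± 0.05 (adjusted p = 0.145). Spint1 rose by 0.27 ± 0.04 at day 4 (adjusted p = 0.00197). Spint2, the other abundant gene of the axis, passed at neither day, nor did St14 and Prss8, which encodes the protease prostasin.

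**Figure D4:**
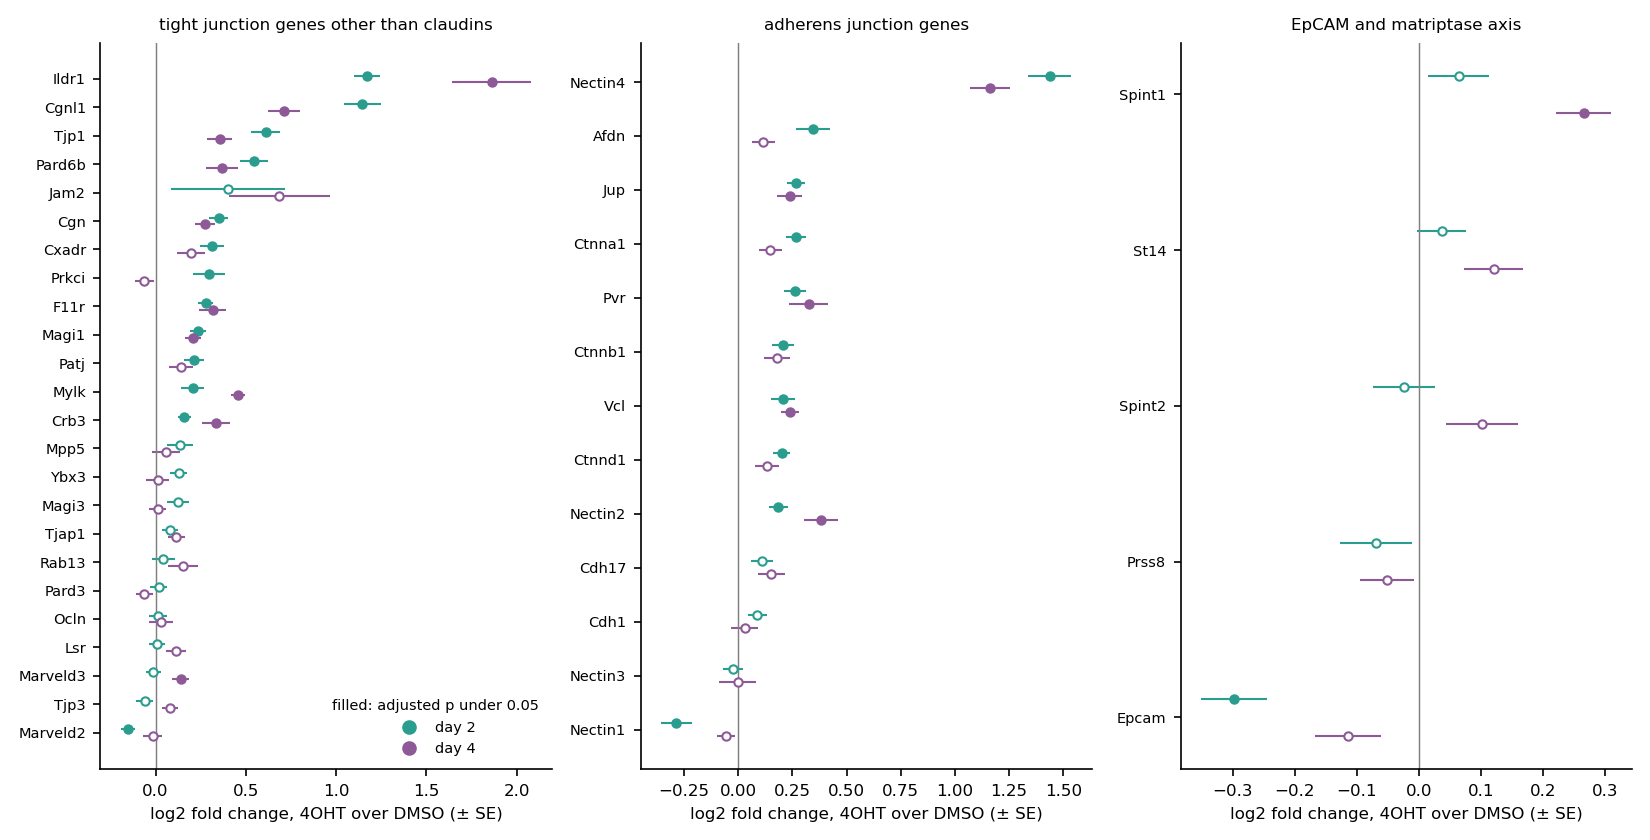
Log2 fold change (horizontal axes, ± SE) in 4OHT over DMSO organoids of genes from the lists of tight junction genes other than claudins, of adherens junction genes and of the EpCAM and matriptase axis at day 2 and day 4; filled points passed an adjusted p of 0.05. Ildr1, Cgnl1 and Nectin4 lie far right of 0 at both days, and Marveld2, Nectin1 and Epcam lie left of 0 at day 2.

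Genes most like Cldn8 and Cldn18, the claudins called with a log2 fold change of at least 1, were taken from 9321 genes by the root mean square difference of centred log2 CPM over the 16 libraries. Hgfac (0.28), Prkar2b (0.29) and Zfp618 (0.29) were nearest to Cldn8, with both treatments and both days entering the measure. Nearest to Cldn18 were Mapk11 (0.70) and Gprc5a (0.70). Cldn18 had 0 to 47 counts per library, so its counting noise enters these values, and they are not compared with those of Cldn8. The 9321 genes had a mean log2 CPM of at least 3 and no predicted gene name. Genes at levels as low as those of Cldn8 or Cldn18 were thus not among them.

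Other claudin genes in the tables had few counts. Cldn9 had 11 to 16 counts per library in DMSO and 11 to 25 in 4OHT at day 2, and 18 to 35 and 14 to 28 at day 4. By edgeR it was higher in 4OHT at day 2 (log2 fold change 0.71 ± 0.24, adjusted p = 0.0402), although not without the filter on low counts (adjusted p = 0.0556), and its day 4 value was -0.56 ± 0.34 (adjusted p = 0.261). From day 2 to day 4 in DMSO it rose by 1.22 ± 0.31 (adjusted p = 0.00518). The filter left the others out of both treatment comparisons. Cldn10 had 0 to 1 counts in DMSO and 2 to 5 in 4OHT at day 2, and 2 to 6 and 9 to 16 at day 4. Its day 2 sums were 1 and 13 counts. It thus reached the 10 counts of a listed gene only through 4OHT, and no day 2 p-value is given. At day 4 its adjusted p without the filter was 0.0186 by edgeR. Cldn20 had 9 to 10 and 5 to 16 counts at day 2, and 3 to 7 and 6 to 13 at day 4, with an adjusted p without the filter of 0.222 and 0.0359. Cldn14 had 1 to 11 counts per library, as did Cldn11, listed at day 4 only, and neither passed in the treatment comparisons without the filter.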

How the data were processed

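Poly(A) RNA libraries of 16 organoid samples were sequenced. Per the submitters' processing notes, bcl2fastq 1.8.4, STAR 2.4.0f1 and GRCm38 were used; no source used here gives the counting tool or whether it used strand. The authors deposited 1 table per day with whole-number counts per gene, each gene with at least 10 counts over its 8 libraries. Their 16 normalized columns were not used. Gene models came from GENCODE M21 (GRCm38) and promoters from RefSeq (GRCm38.p6).

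The test was the robust quasi-likelihood test of edgeR 4.0.16 (with limma 3.58.1 in R 4.3.3), after TMM scaling and the filterByExpr filter. Genes were called at a Benjamini-Hochberg adjusted p below 0.05, adjusted over all genes of the fit. Each day was fitted on its 8 libraries, and the interaction on all 16. CPM use TMM-scaled totals over the 16 libraries. Alternatives were DESeq2 1.42.0, its size factors in edgeR, other filters (none, or 4 libraries with 1 CPM or more), replicate number as a block, 1 fit over 16 libraries, and each library left out. At day 4, same-numbered DMSO and 4OHT libraries deviated together (correlations 0.63 to 0.81), so the numbers pair them there; the labels name no shared batch. Tests were also run on simulated counts, drawn independently per library from the fitted spread. Such counts hold no pairing, so these runs cannot show how the pairing at day 4 affects the calls. In all 24 library pairs within groups, counts differed by more than counting noise. Intervals on counts cover counting error only.

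The claudins, classes, gene lists and marker lists were chosen with earlier results of these data known. Named were the 10 claudins, Hnf4a, and from each junction list the 2 called genes with the smallest p in each direction per treatment comparison and the 2 with the highest CPM. Some genes that this rule or the likeness measure picked are not reported here. Ocln, and values of Tff1 and other single gastric and squamous markers, were added after seeing the data. Of the list genes, 6 were matched through their gene ID from older symbols.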

Additional observations from a re-analysis of the deposited data

Results flagged for a closer look

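In 4 of 48 sets of 4 libraries, 1 library lay far from the other 3 by Dixon's test, and chance flags about 1 set in 20. In DMSO organoids at day 4, replicate 2 was the lowest for Cldn2 (346 CPM) and for Cldn4 (57.3 CPM). In 4OHT organoids at day 2, replicate 3 was the lowest for Cldn23 (20.2 CPM) and the highest for Cldn1 (0.0319 CPM, which is 2 counts against 1 in each of the others).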

How the results depend on the processing

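No claudin changed direction in any alternative where it had been called. With 1 fit over all 16 libraries, 3 claudins passed at day 2. At day 4 the replicate block called 7216 of 16040 genes, where edgeR without the block called 2191 higher and 1776 lower. Leaving out 1 library at day 4 gave 2 to 5 claudins. For the interaction, edgeR without a block called 199 of 16597 genes higher and 79 lower. DESeq2 called 2 claudins and 847 genes there, and the replicate block 3 and 1850. Leaving out 1 library gave 0 to 1 claudins and 94 to 727 genes for the interaction. From day 2 to day 4 in 4OHT, leaving out 1 library gave 1 to 3 claudins. Claudin counts without a count of all genes beside them show only that calls moved. Without the most abundant claudin of each class (Cldn15 and Cldn3), the difference in the log2 ratio of pore-forming to sealing level was -0.54 at day 2 and -0.77 at day 4. That ratio is almost wholly Cldn2 over Cldn4, as Cldn8, Cldn18 and Cldn1 had group means of at most 0.807 CPM per kilobase. From DMSO to 4OHT, Cldn2 had means of 115 and 112 at day 2 and 108 and 111 at day 4. Cldn4 had 53.9 and 75.6, then 39.7 and 74.6, and its day 4 call did not hold up well. These values thus show the Cldn4 difference and no fall of Cldn2. The cause of the shifts in calls was not tested. With the replicate block, 5 claudins passed at day 4, with Cldn3 and Cldn12 gained and Cldn4 lost. The block changed no claudin call in the day 2 comparison or in either time comparison. Same-numbered libraries correlated at -0.11 to 0.47 at day 2, and across days at 0.07 to 0.19 in DMSO and -0.23 to 0.39 in 4OHT, so the numbers were not taken to pair those libraries. Depth limits Cldn1, Cldn8 and Cldn18, with at most 9, 192 and 47 counts in a library.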
